A study of Mus musculus with 77 samples.

Results

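The heat shock proteins and their DnaJ (Hsp40) cochaperones were examined in translated messenger RNA of the 2 classes of striatal spiny projection neuron in a mouse model of Parkinson's disease and levodopa treatment. Members were the array probe sets annotated with a single gene symbol of the Hspa, Hspb, Hsp90, Hspd1, Hspe1, Hsph1, Dnaja, Dnajb or Dnajc series. The rule used the symbol alone and found 169 of 45101 probe sets, which stand for 70 of 18194 genes. Each gene was represented by its brightest probe set, and 62 of the 70 member genes, against 13271 of all 18194 genes, had a mean above the filter on dim genes, a log2 value of 3.55. The member just above the filter was Hspb9, at 3.63, and the one just below was Hspa1b, at 3.52. The 8 that did not pass were Dnajb3, Dnajb7, Dnajb8, Dnajb13, Dnajc5g, Hspa1b, Hspb3 and Hspb7.

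The samples were 77 arrays, each of RNA from the dorsal striatum of a single male mouse aged 9 to 14 weeks on the C57BL/6J background. All mice carried a bacterial artificial chromosome transgene for an EGFP-tagged ribosomal protein L10a, and polysomes pulled down through EGFP gave the RNA (translating ribosome affinity purification, TRAP). In line CP73 the Drd1 promoter drives the tag in direct-pathway neurons (dSPN), and in line CP101 the Drd2 promoter drives it in indirect-pathway neurons (iSPN), so each neuron class was represented by 1 transgenic line. Lesioned mice had 6-hydroxydopamine (6-OHDA), which kills dopamine axons, injected at 3.2 µg/µl into the right medial forebrain bundle, and those with a successful lesion by behaviour were kept. The high-dose groups (11 dSPN and 8 iSPN arrays) received levodopa once a day, 3 mg/kg for days 1 to 3 and then, for days 4 to 9, 6 mg/kg. The low-dose groups (12 dSPN and 8 iSPN arrays) received 1 and then 2 mg/kg on the same days, and both doses came with benserazide at 12 mg/kg, which blocks conversion outside the brain. The lesioned saline groups had 11 dSPN and 7 iSPN arrays, and the mock-lesioned saline groups, injected with vehicle in place of 6-OHDA, had 10 arrays each. Striatum on the injected side was taken right after the last behaviour session.

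Heat shock proteins are molecular chaperones that bind unfolded or misfolded proteins. Hsp70 proteins work in an ATP-driven cycle: J proteins of the DnaJ classes deliver clients and start ATP hydrolysis, and Hsp110 proteins exchange the nucleotide. Hsp90 finishes the folding of kinases and receptors, small heat shock proteins hold clients against aggregation, and Hspd1 with Hspe1 forms the folding chamber of mitochondria. Neurons use the same machinery in protein synthesis, in uncoating synaptic vesicles and in controlling protein aggregates.

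The labelled cell classes fitted their defining genes: in mock-lesioned mice Drd1 lay between 11.64 and 11.93 in dSPN arrays, against 9.48 to 10.54 in iSPN arrays, and Drd2 lay between 7.15 and 8.05 in dSPN arrays, against 12.09 to 12.73 in iSPN arrays. All values are log2 intensities, with array medians between 4.31 and 4.42 over all probe sets. Each array had a median correlation with its own group between 0.964 and 0.987, and no pair of arrays exceeded 0.987. Levodopa raised 9 of 10 tested immediate early genes in lesioned dSPN at the high dose and lowered none, with a median log2 change of 3.72. Glial transcripts moved with levodopa in dSPN. Of 13 tested oligodendrocyte markers 11 fell at the high dose and 11 at the low dose. The mean of that list lay between 5.63 and 6.73 at the high dose and 5.67 and 6.82 at the low dose, against 6.81 to 7.98 with saline. Of 13 astrocyte markers 7 fell at the high dose and 5 at the low dose, with list means of 5.72 to 6.79 and 5.84 to 6.70, against 6.61 to 7.20 with saline. Of 10 tested iSPN markers 7 fell and 1 rose in high-dose dSPN, with list means of 5.55 to 6.40, against 6.20 to 6.73 with saline. Fits with the oligodendrocyte or astrocyte mean as a covariate are given below, and the iSPN marker mean was not fitted. The part of these RNAs in the members' changes was not otherwise tested. In iSPN neither glial list had a marker that passed the test under levodopa. Less RNA per cell and fewer cells of a type cannot be told apart in these pulled-down samples.

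High-dose levodopa changed members in both directions in lesioned dSPN. Of the 62 tested members 22 were higher and 18 lower than with saline (limma, Benjamini-Hochberg adjusted p under 0.05 over all 13271 genes). That is 64.5% of members, against 45.6% of all genes tested, of which 20.1% rose and 25.5% fell. The median log2 change of the members was -0.04, and that of all genes was also -0.04. Log2 changes ran from 2.64 for Dnajb5 to -1.09 for Hspa1l, and 5 members changed by more than 2-fold. In 11 members the high-dose and saline arrays did not overlap at all, against 11.4% of all genes tested. The mouse numbers in the sample titles fall into 7 runs within which they rise, and the sources used here do not say what such a run is. Within the run that holds 9 high-dose and 6 saline dSPN arrays, 17 members were higher and 15 lower, or 51.6%, against 39.4% of all genes. With the oligodendrocyte marker mean of each array in the fit, 11 members were higher and 14 lower, or 40.3%, against 34% of all genes.

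**Figure D1:**
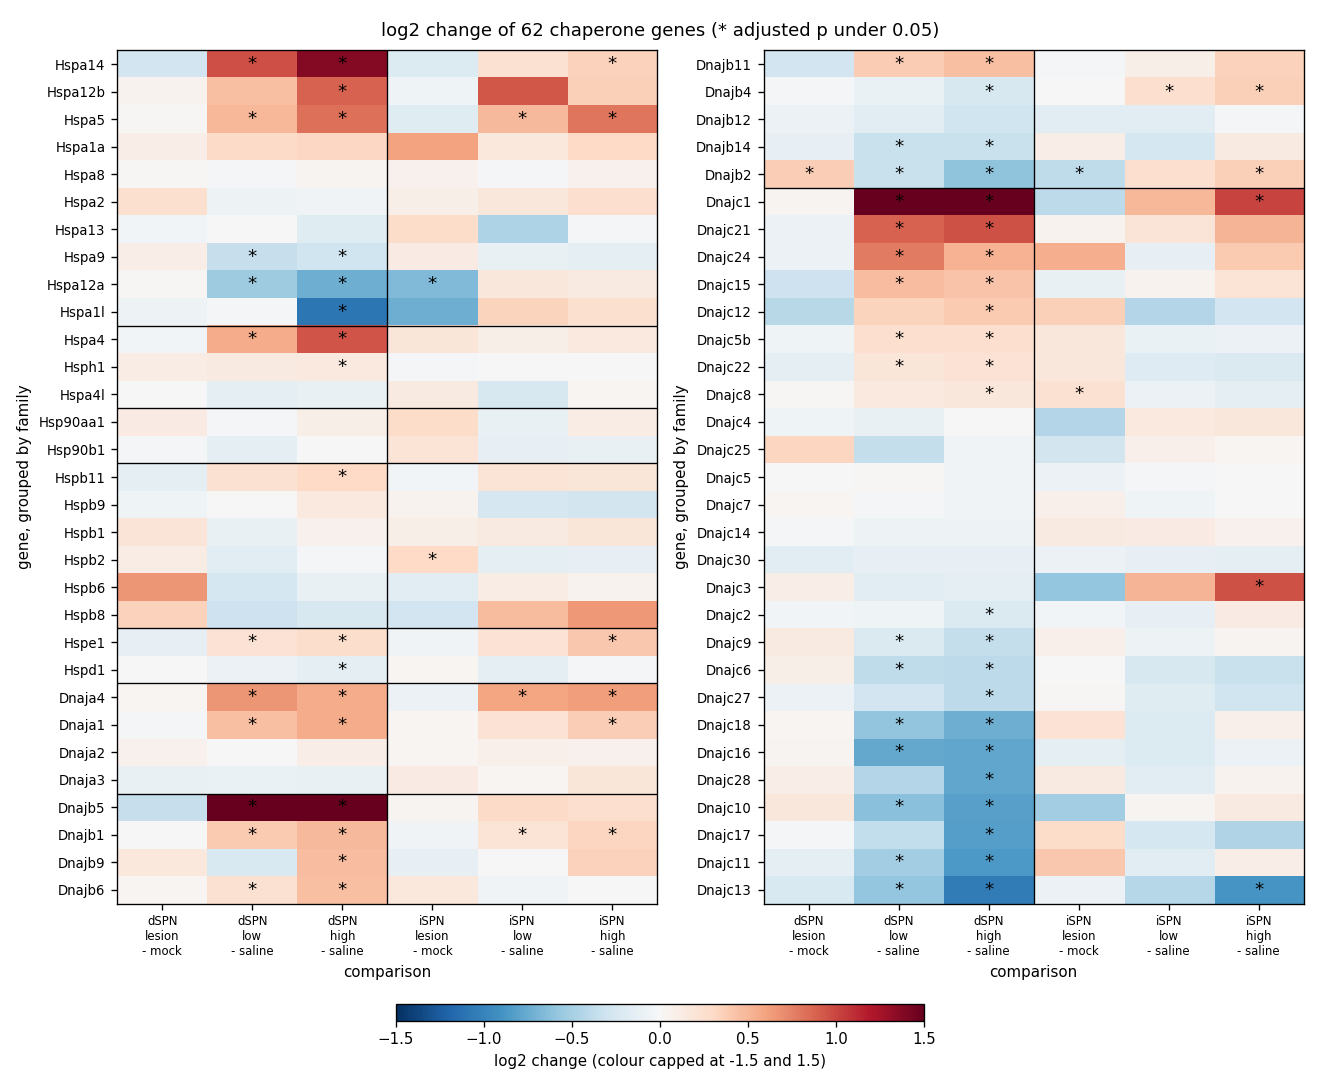
Log2 change of the 62 tested chaperone genes in 6 comparisons, with lesion against mock, low dose against saline and high dose against saline in each line; families are divided by horizontal lines, colour is capped, and asterisks mark an adjusted p under 0.05. The dSPN high-dose column holds 40 asterisks, the iSPN high-dose column 11, and the lesion columns 1 and 4.

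Dnajb5, a class B J protein, had the largest rise of the family. It lay between 11.77 and 12.35 (median 11.90) in high-dose dSPN arrays, against 8.74 to 10.00 (median 9.25) in saline dSPN arrays. The lowest treated array was far above the highest saline array. The log2 change was 2.64 ± 0.12 (SE), or 6.23-fold, with an adjusted p of 2.57e-30. The rise was 2.63 within that run and 2.46 with the oligodendrocyte mean in the fit. Its other probe sets rose by 2.73 and 2.06. A promoter window of Dnajb5, chr4:42949617-42949916 on the plus strand of GRCm38.p6 (RefSeq, from 250 bases before to 50 after the transcription start), holds TGACG, the core of the cAMP response element, shown in capitals because activity-regulated genes often carry it. The same core lies in 48.6% of the 74 member windows, and in 20.8% of 32851 windows of all genes. Of 29 tested members with this core, 11 rose, 11 fell and 7 were not called at the high dose in dSPN.
Dnajb5: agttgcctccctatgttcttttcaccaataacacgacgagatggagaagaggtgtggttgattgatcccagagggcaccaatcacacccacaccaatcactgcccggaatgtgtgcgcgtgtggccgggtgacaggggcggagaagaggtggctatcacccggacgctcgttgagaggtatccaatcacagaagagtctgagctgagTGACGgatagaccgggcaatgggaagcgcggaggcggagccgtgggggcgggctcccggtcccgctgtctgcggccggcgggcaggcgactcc

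The Hsp70 proteins moved both ways, with 3 of 10 tested members higher and 3 lower. Hspa14, a ribosome-bound Hsp70, had 9.84 to 10.23 (median 10.01) in high-dose dSPN arrays, against 8.44 to 8.91 (median 8.60) in saline dSPN arrays. These ranges stood apart. The log2 change was 1.38 ± 0.10, with an adjusted p of 1.14e-20. Dnajc2, the J protein partner of Hspa14 on the ribosome, fell by 0.22 on the log2 scale (adjusted p 0.0105). Hspa5 (BiP), the Hsp70 of the endoplasmic reticulum, had 10.91 to 11.37 (median 11.10) in high-dose dSPN arrays, against 9.90 to 10.60 (median 10.34) in saline dSPN arrays. These too did not overlap, with a change of 0.82 ± 0.12 and an adjusted p of 4.71e-08. Hspa12b, an atypical Hsp70 known from endothelial cells, rose by 0.88 (adjusted p 0.0311), and the adjusted p was 0.0595 with the run of mouse numbers as a block. Of the 4 tested endothelial and mural markers the mean lay between 4.63 and 5.56 at the high dose, against 4.57 to 5.31 with saline.

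The Hsp70 members that fell were Hspa1l, Hspa12a and Hspa9. Hspa12a, an atypical Hsp70 found in brain, had 8.58 to 9.43 (median 9.03) in high-dose dSPN arrays, against 9.51 to 10.01 (median 9.78) in saline dSPN arrays. The groups did not overlap, and the change was -0.73 ± 0.13 (adjusted p 3.28e-06). Hspa1l, known from testis, had 4.51 to 7.60 (median 6.80) in high-dose dSPN arrays, against 6.89 to 8.74 (median 7.52) in saline dSPN arrays. Its wide groups overlapped, and the change of -1.09 ± 0.36 (adjusted p 0.0102) had an adjusted p of 0.125 with the oligodendrocyte mean in the fit. Hspa9 (mortalin), the mitochondrial Hsp70, had 10.42 to 10.65 (median 10.50) in high-dose dSPN arrays, against 10.65 to 11.07 (median 10.79) in saline dSPN arrays. The ranges only met at their edges, with a change of -0.30 ± 0.08 (adjusted p 0.00119). Another probe set of Hspa9 rose by 0.28 (adjusted p 0.0014), and it was the only other probe set of a changed member that was called in the opposite direction.

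The constitutive Hsp70 Hspa8 and the stress-inducible Hspa1a did not pass the test. Hspa8 had 12.80 to 13.01 (median 12.92) in high-dose dSPN arrays, against 12.83 to 12.96 (median 12.88) in saline dSPN arrays. The ranges coincided and the change was 0.04 ± 0.04 (adjusted p 0.485). When every probe set was tested as a feature of its own, 2 other Hspa8 probe sets rose by 0.11 (adjusted p 0.0128) and 0.14 (adjusted p 0.00287). Hspa1a changed by 0.31 (adjusted p 0.287). Its mean over all arrays was 4.20, below the array medians of 4.31 to 4.42, so this result says little about its response. The levels of its near-identical copy Hspa1b, which lay under the filter, are given below.

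Of the nucleotide exchange factors of the Hsp110 group, 2 of 3 rose. Hspa4 (Apg-2) had 12.20 to 12.56 (median 12.40) in high-dose dSPN arrays, against 11.27 to 11.72 (median 11.42) in saline dSPN arrays. The groups stood apart, with a change of 0.95 ± 0.07, or 1.93-fold (adjusted p 1.77e-19). Hsph1 (Hsp105) rose by 0.15 ± 0.06 (adjusted p 0.0416), and its second probe set by 0.35. The call on the first was not made within the run of mouse numbers, at 0.14 and an adjusted p of 0.217. Hspa4l changed by -0.11 (adjusted p 0.302).

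Neither tested Hsp90 gene passed the test: the log2 change was 0.09 for Hsp90aa1 (adjusted p 0.384), the cytosolic Hsp90, and 0.00 for Hsp90b1 (Grp94; adjusted p 0.997), that of the endoplasmic reticulum. Hsp90ab1 had no probe set with its symbol alone and was not analysed here. Hsp90aa1 had 11.88 to 12.11 (median 11.98) in high-dose dSPN arrays, against 11.67 to 12.03 (median 11.92) in saline dSPN arrays, which overlapped. Among the genes placed with the small heat shock proteins by their Hspb symbol, 1 of 6 rose and 5 were not called. The 1 that rose was Hspb11, by 0.30 (adjusted p 0.0332), and it is known for transport along cilia. Hspb1 changed by 0.07 (adjusted p 0.712) and Hspb8 by -0.24 (adjusted p 0.483). Hspb1 was dim, with a mean of 4.30 over all arrays, close to the array medians of 4.31 to 4.42.

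The mitochondrial chaperonin genes parted. Hspe1 (Hsp10), the lid of the chamber, had 12.09 to 12.24 (median 12.14) in high-dose dSPN arrays, against 11.83 to 11.99 (median 11.89) in saline dSPN arrays. These narrow ranges did not overlap, with a change of 0.27 ± 0.06 (adjusted p 0.000177). Hspd1 (Hsp60), the chamber itself, had 10.97 to 11.32 (median 11.19) in high-dose dSPN arrays, against 11.16 to 11.47 (median 11.33) in saline dSPN arrays. These overlapped, and the fall of 0.13 ± 0.05 was just past the threshold (adjusted p 0.0416). Within the run of mouse numbers Hspe1 rose by 0.31 and the change of Hspd1, at -0.12, had an adjusted p of 0.165. With the oligodendrocyte mean in the fit Hspe1 changed by 0.08 (adjusted p 0.437), and the part of glial RNA in its rise was otherwise not tested. Hspd1 and Hspe1 lie head to head on chromosome 1, and their windows, read on opposite strands, share 285 bases. The shared stretch holds a heat shock element of 3 units, the binding motif of heat shock factors (GAA and TTC in turn, with any 2 bases between units), in capitals over both of its overlapping matches in the Hspe1 window, chr1:55087898-55088197, plus strand.
Hspe1: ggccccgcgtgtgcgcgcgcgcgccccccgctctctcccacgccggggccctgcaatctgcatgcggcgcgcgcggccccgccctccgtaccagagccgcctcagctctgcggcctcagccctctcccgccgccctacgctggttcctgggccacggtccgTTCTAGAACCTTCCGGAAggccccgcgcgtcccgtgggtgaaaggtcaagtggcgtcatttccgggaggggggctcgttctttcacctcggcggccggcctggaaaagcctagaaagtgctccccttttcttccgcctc

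Among J proteins of class A, which are closest to bacterial DnaJ, 2 of 4 rose and none fell. Dnaja1 had 12.33 to 12.84 (median 12.69) in high-dose dSPN arrays, against 12.02 to 12.27 (median 12.07) in saline dSPN arrays. The ranges stood apart, with a change of 0.55 ± 0.06 (adjusted p 1.5e-13). Dnaja4 had 9.08 to 9.60 (median 9.40) in high-dose dSPN arrays, against 8.37 to 9.14 (median 8.79) in saline dSPN arrays. Its groups overlapped at the edge, with a change of 0.56 ± 0.11 (adjusted p 1.29e-05) and an adjusted p of 0.0811 with the oligodendrocyte mean in the fit. Dnaja2 changed by 0.10 (adjusted p 0.275), and the mitochondrial Dnaja3 by -0.11 (adjusted p 0.261).

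Class B J proteins rose in 5 of 9 cases and fell in 3. Dnajb1 (Hsp40), the classical heat-inducible partner of Hsp70, had 11.47 to 11.93 (median 11.76) in high-dose dSPN arrays, against 11.13 to 11.44 (median 11.27) in saline dSPN arrays. The groups were separate, with a change of 0.48 ± 0.05 (adjusted p 6.64e-14). Dnajb6, which keeps polyglutamine proteins from aggregating, had 11.44 to 11.69 (median 11.53) in high-dose dSPN arrays, against 10.99 to 11.25 (median 11.12) in saline dSPN arrays. It too was separate, with a change of 0.45 ± 0.05 (adjusted p 2.6e-11). One of its windows, chr5:29735648-29735947 on the plus strand, holds a heat shock element of 3 units, shown in capitals.
Dnajb6: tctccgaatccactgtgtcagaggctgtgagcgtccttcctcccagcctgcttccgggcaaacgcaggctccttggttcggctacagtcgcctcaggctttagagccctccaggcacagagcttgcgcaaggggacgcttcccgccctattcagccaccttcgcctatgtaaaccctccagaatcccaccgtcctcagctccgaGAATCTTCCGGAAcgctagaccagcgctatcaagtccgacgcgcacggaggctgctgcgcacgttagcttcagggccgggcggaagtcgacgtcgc

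Dnajb9 (ERdj4) and Dnajb11 (ERdj3), J proteins of the endoplasmic reticulum, rose by 0.47 ± 0.13 (adjusted p 0.00153) and 0.45 ± 0.12 (adjusted p 0.0014). Dnajb9 had 8.46 to 9.56 (median 8.83) in high-dose dSPN arrays, against 8.16 to 8.75 (median 8.40) in saline dSPN arrays, so the groups overlapped. The class B members that fell were Dnajb2, Dnajb4 and Dnajb14. Dnajb2 (HSJ1), a neuronal J protein that sorts ubiquitinated clients, had 8.77 to 9.63 (median 9.33) in high-dose dSPN arrays, against 9.65 to 9.96 (median 9.85) in saline dSPN arrays. No treated array reached the saline range, and the change was -0.60 ± 0.07 (adjusted p 1.09e-10). Dnajb4 had 11.13 to 11.39 (median 11.24) in high-dose dSPN arrays, against 11.35 to 11.62 (median 11.47) in saline dSPN arrays. It overlapped at the edge, with a change of -0.24 ± 0.05 (adjusted p 9.82e-06).

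**Figure D2:**
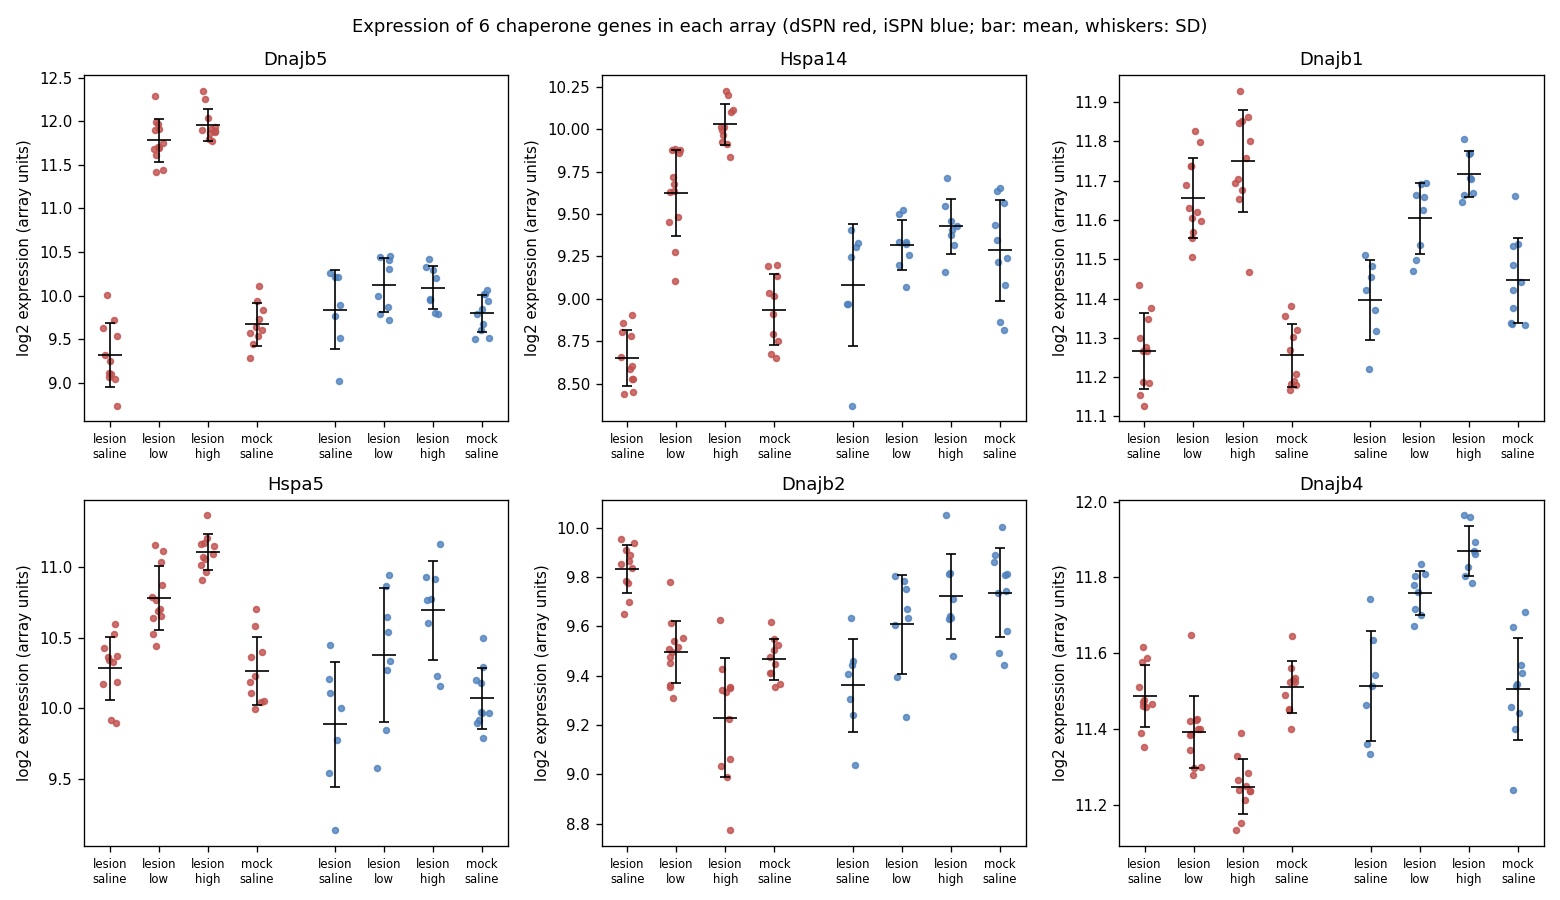
Log2 expression of 6 chaperone genes in each array, by group, with dSPN in red and iSPN in blue; the long bar is the mean and the whiskers the SD (n = 7 to 12). Dnajb5 and Hspa14 in high-dose dSPN arrays lie above every saline dSPN array, and Dnajb2 and Dnajb4 move in opposite directions in the lines. The iSPN rise of Dnajb2 was not called with the run of mouse numbers as a block.

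Class C, in which the J domain is joined to other domains, had 8 of 26 members higher and 11 lower. Dnajc1 (ERdj1), which recruits BiP to ribosomes on the endoplasmic reticulum, had 8.02 to 9.15 (median 8.50) in high-dose dSPN arrays, against 5.78 to 6.83 (median 6.56) in saline dSPN arrays. The groups were more than 1 log2 unit apart, with a change of 2.23 ± 0.28, or 4.70-fold (adjusted p 1.87e-10). Dnajc21, which in human cells helps mature the large ribosomal subunit, rose by 0.95 ± 0.19 (adjusted p 1.89e-05). Smaller rises were called for Dnajc24 (0.52), Dnajc15 (0.43), Dnajc12 (0.40), Dnajc5b (0.25), Dnajc22 (0.22) and Dnajc8 (0.18). Of these Dnajc24, which takes part in diphthamide synthesis, had an adjusted p of 0.569 with the oligodendrocyte mean in the fit. Dnajc5b and Dnajc22 were dim, with means of 4.52 and 4.57 over all arrays, close to the array medians of 4.31 to 4.42.

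The largest falls in class C were in Dnajc13 (RME-8), which works with clathrin on endosomes. It had 5.03 to 6.63 (median 5.79) in high-dose dSPN arrays, against 6.13 to 7.33 (median 6.88) in saline dSPN arrays. The groups overlapped, with a change of -1.04 ± 0.21 (adjusted p 2.09e-05), and the adjusted p was 0.0588 with the oligodendrocyte mean in the fit. Dnajc11, of the mitochondrial outer membrane, changed by -0.87 ± 0.21 (adjusted p 0.000427), and Dnajc17, a nuclear J protein, by -0.83 ± 0.16 (adjusted p 1.44e-05). Dnajc10 (ERdj5), a reductase of the endoplasmic reticulum, changed by -0.81 ± 0.17 (adjusted p 5.91e-05). Dnajc16, Dnajc28 and Dnajc18 changed by -0.78, -0.78 and -0.73.

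Of the J proteins known from synapses, Dnajc6 fell and Dnajc5 did not pass the test. Dnajc6 (auxilin), which with Hspa8 strips clathrin from vesicles, had 8.80 to 9.69 (median 9.23) in high-dose dSPN arrays, against 9.29 to 9.83 (median 9.63) in saline dSPN arrays. The ranges overlapped, with a change of -0.40 ± 0.10 (adjusted p 0.000729), and the adjusted p was 0.311 with the oligodendrocyte mean in the fit and 0.145 with the astrocyte mean. Dnajc5 (CSPα), the synaptic vesicle partner of Hspa8, changed by -0.05 (adjusted p 0.482). When a gene's probe sets were averaged, its change was 0.15 (adjusted p 0.0167).

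Probe sets of 1 gene differed in the size of the change. Of 49 other tested probe sets of the 40 changed members, 34 were called in the same direction, 1 in the opposite direction and 14 were not called. The second Dnajb1 probe set had 8.39 to 9.52 (median 8.93) in high-dose dSPN arrays, against 5.56 to 7.53 (median 6.15) in saline dSPN arrays. It stood apart and rose by 2.73 ± 0.19, against 0.48 for the brighter probe set that stands for Dnajb1. One Dnajb6 probe set had 6.77 to 8.07 (median 7.80) in high-dose dSPN arrays, against 3.35 to 5.14 (median 3.86) in saline dSPN arrays. The groups stood apart, but its saline median lay near the filter on dim genes, so the fitted change of 3.66 has no exact size. The other Dnajb6 probe sets rose by 0.83, 0.66 and 0.45. A second Hspa14 probe set rose by 2.99 and the third by 1.85, and the second Hspe1 probe set rose by 0.77. All of these agreed in direction within the gene. Dnajc3 was the reverse case: the probe set that stands for it changed by -0.15 (adjusted p 0.638), and another fell by 0.93 (adjusted p 0.000751).

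**Figure D3:**
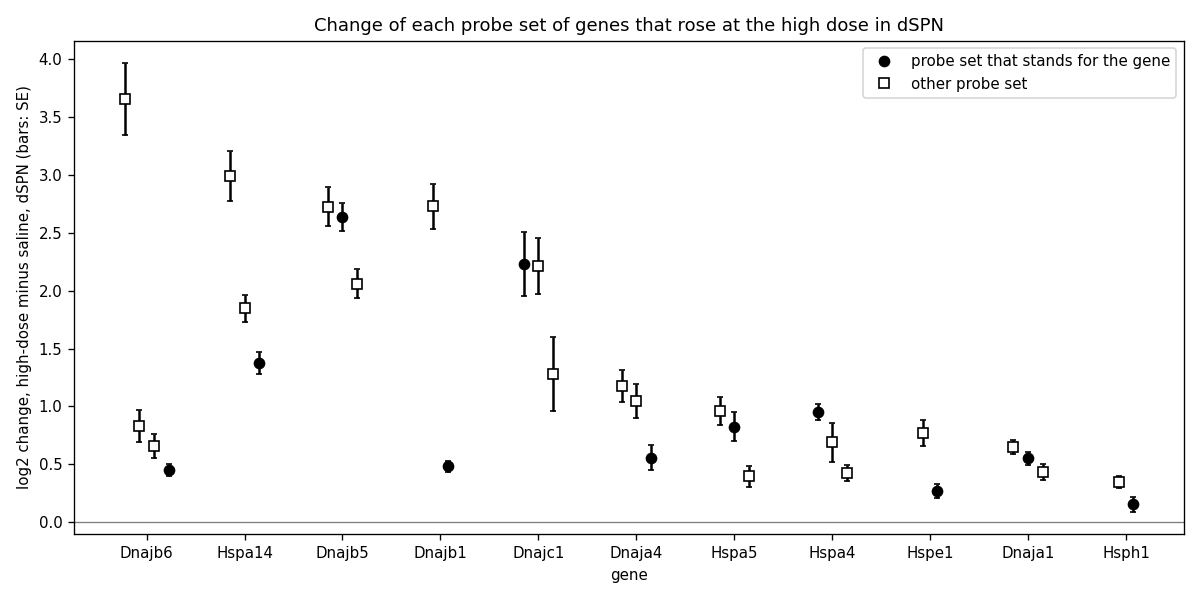
Log2 change at the high dose against saline in lesioned dSPN for each tested probe set of 11 genes that rose, with SE bars; filled circles mark the probe set that stands for the gene and open squares the others. Dnajb1 spans 0.48 to 2.73 and all plotted values are above 0; the top Dnajb6 value, 3.66, is measured from saline arrays near the filter on dim genes.

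The low dose, compared with the same 11 saline dSPN arrays, had 16 of 62 members higher and 11 lower, or 43.5%, against 34.1% of all genes tested, of which 15.1% rose and 19% fell. The groups did not overlap in 7 members, against 4.8% of all genes. Dnajb5 had 11.42 to 12.29 (median 11.73) in low-dose dSPN arrays, against 8.74 to 10.00 in saline dSPN arrays, and rose by 2.46 ± 0.12 (adjusted p 1.01e-28). Dnajc1 rose by 1.81 ± 0.27, Hspa14 by 0.97 ± 0.09, Dnaja4 by 0.67 ± 0.11 and Hspa4 by 0.56 ± 0.07, and all 4 had separate groups at this dose. Dnajc16 fell by 0.77 ± 0.11, the largest fall at this dose. Low-dose and saline dSPN arrays shared no run of mouse numbers, so the effect could not be read within a run. A fit with the run as a block could link them only through mock-lesioned and high-dose dSPN arrays that shared runs with them. With the oligodendrocyte mean in the fit 9 members were higher and 9 lower (29%, against 23.9% of all genes), and with the astrocyte mean 10 and 7 (27.4%, against 23.6%). With arrays centred on their median 20 were higher and 8 lower (45.2%, against 33.8% of all genes). With the run as a block 9 members were higher and 4 lower, or 21%, against 13.9% of all genes: Dnajb5 (2.39), Dnajc1 (1.46), Hspa14 (1.08) and Dnaja4 (0.71) among the first, and Dnajc16 (-0.96) among the second.

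Between the doses 4 members were higher and 3 lower at the high dose, or 11.3% of members, against 6.8% of all genes tested (3.14% higher and 3.66% lower). No member had separate groups, against 0.113% of all genes. Dnajb9 had 8.46 to 9.56 (median 8.83) in high-dose dSPN arrays, against 7.68 to 8.59 (median 8.23) in low-dose dSPN arrays. Its groups overlapped little, with a difference of 0.69 ± 0.12 (adjusted p 7.42e-05), whereas its low-dose change from saline was -0.22 and was not called. Hspa14 was higher at the high dose by 0.40, Hspa4 by 0.39 and Dnajb6 by 0.22, and Dnajb2, Dnajb4 and Hspa1l were lower by differences of -0.27, -0.14 and -1.07. Dnajb5 rose at both doses, and the difference between them was not called. With arrays centred on their median 4 members were higher and 1 lower (8.06%, against 6.76% of all genes). With the run as a block 1 member (1.61%, against 1.31% of all genes) was called, Dnajb9, at 0.70 (adjusted p 0.0448). Dose and run were largely joined: the run that held 11 of the 12 low-dose dSPN arrays held 2 high-dose arrays. The other 9 high-dose arrays lay in a run without low-dose arrays.

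High-dose levodopa changed fewer members in lesioned iSPN. Of 62 members 10 were higher and 1 lower than with saline, or 17.7%, against 9.86% of all genes tested (6.27% higher and 3.59% lower). The median log2 change of members was 0.11, and that of all genes was 0.01. The groups did not overlap in 4 members, Dnaja4, Dnajb1, Dnajb4 and Hspe1, against 1.57% of all genes. The run that held all 8 high-dose iSPN arrays held 2 saline arrays. The oligodendrocyte list mean lay between 6.76 and 7.45 in high-dose iSPN arrays, against 7.32 to 8.57 in saline iSPN arrays. With the run as a block 3 members were called, Dnajb4 (0.33), Dnaja1 (0.34) and Dnajb1 (0.31), or 4.84%, against 1.88% of all genes. Within that run no member was called, against 0.46% of all genes.

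Hspa5, the chaperonin lid and several cytosolic J proteins were among the iSPN rises. Hspa5 had 10.16 to 11.17 (median 10.77) in high-dose iSPN arrays, against 9.13 to 10.45 (median 10.00) in saline iSPN arrays. The ranges overlapped, with a change of 0.81 ± 0.15 (adjusted p 9.72e-05), and the value was 0.72 (adjusted p 0.0536) with the run as a block. Hspe1 had 12.10 to 12.37 (median 12.27) in high-dose iSPN arrays, against 11.37 to 12.03 (median 11.92) in saline iSPN arrays, and rose by 0.40 ± 0.07 (adjusted p 6.96e-05). Dnajb4 had 11.79 to 11.96 (median 11.87) in high-dose iSPN arrays, against 11.33 to 11.74 (median 11.51) in saline iSPN arrays. Its groups were separate, with a change of 0.36 ± 0.06 (adjusted p 3.14e-06). Dnaja4 rose by 0.63 ± 0.13 (adjusted p 0.000528), Dnaja1 by 0.37 ± 0.07 (adjusted p 7.96e-05) and Dnajb1 by 0.32 ± 0.06 (adjusted p 6.89e-05).

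Dnajc1 rose by 1.02 ± 0.33 (adjusted p 0.0389) in high-dose iSPN and Hspa14 by 0.34 ± 0.12 (adjusted p 0.0471), both near the threshold. Dnajc3 (P58IPK), a J protein that serves BiP, had 6.39 to 8.20 (median 7.70) in high-dose iSPN arrays, against 5.08 to 7.68 (median 6.80) in saline iSPN arrays. Its wide groups overlapped, with a change of 0.95 ± 0.29 (adjusted p 0.0225), and none of its other tested probe sets was called. Dnajc13 was the only member that fell, by 0.89 ± 0.25 (adjusted p 0.0142). It changed by -0.24 (adjusted p 0.842) with the run as a block. At the low dose 4 members rose in iSPN and none fell, or 6.45% of members, against 4.18% of all genes tested (2.41% higher and 1.77% lower): Dnaja4 (0.59), Hspa5 (0.49), Dnajb4 (0.25) and Dnajb1 (0.21). No member was called within the run of 8 low-dose and 4 saline arrays (0.0301% of all genes), or with iSPN arrays fitted alone (1.15% of all genes). No member had separate groups at this dose, against 0.377% of all genes. Between the doses in iSPN no member was called, against 0.173% of all genes (0.113% higher and 0.0603% lower), and none had separate groups, against 0.0678% of all genes. All 8 high-dose iSPN arrays lay in a single run of mouse numbers and all 8 low-dose arrays in another. The doses could therefore not be compared within a run in iSPN.

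Hspa1b, a stress-inducible Hsp70, lay under the filter on dim genes and is given by its levels alone, since the medians of its saline arrays in both lines were below the filter and a change from them has no exact size. It had 3.92 to 6.03 (median 5.31) in high-dose iSPN arrays, against 2.12 to 3.90 (median 2.39) in saline iSPN arrays. The ranges just stood apart. In low-dose iSPN arrays it had 3.43 to 5.89 (median 4.95), which overlapped the saline range at the edge. In dSPN Hspa1b had 2.59 to 4.86 (median 3.85) in high-dose arrays, against 2.13 to 4.20 (median 2.90) in saline arrays, and these overlapped. No size is given for a difference between the lines, for the same reason. Hspa1a, its near-identical copy, was also dim, with a mean of 4.20 over all arrays. It changed by 0.30 in high-dose iSPN and was not called, and probes of the pair may share transcripts.

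The difference between the lines was tested directly as an interaction. At the high dose 9 members had a higher and 12 a lower effect in dSPN than in iSPN, or 33.9%, against 25% of all genes tested (10.5% higher and 14.5% lower). Dnajb5 led, with a change of 2.64 in dSPN, against 0.25 in iSPN, and a difference of 2.39 ± 0.19 (adjusted p 6.23e-17). It had 9.79 to 10.42 (median 10.08) in high-dose iSPN arrays, against 9.02 to 10.26 (median 9.89) in saline iSPN arrays, which overlapped. The difference was 1.22 for Dnajc1, 1.03 for Hspa14, 0.81 for Hspa4 and 0.44 for Dnajb6. A fit with the run as a block left 7 members with a higher and 4 with a lower effect in dSPN, or 17.7%, against 15.7% of all genes. Among them were Dnajb5 (2.56), Hspa14 (1.30), Hspa4 (0.68) and Dnajb6 (0.38), while Dnajc1 (1.40) had an adjusted p of 0.0881. With arrays centred on their median 12 were higher and 8 lower (32.3%, against 25.2% of all genes). At the low dose 10 members had a higher and 4 a lower effect in dSPN, or 22.6%, against 14.8% of all genes tested (6.99% higher and 7.79% lower), again with Dnajb5 (2.17) in the lead. Blocking on the run left 3 higher and 2 lower (8.06%, against 5.3% of all genes), namely Dnajb5 (1.93), Hspa14 (0.67), Hspa4 (0.52), Dnajb4 (-0.37) and Dnajc16 (-0.80). With the oligodendrocyte mean in the fit 4 were higher and 3 lower (11.3%, against 12.2% of all genes), and with the astrocyte mean 5 and 3 (12.9%, against 11.8%).

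Dnajb2 and Dnajb4 moved in opposite directions in the lines. Dnajb2 had 9.48 to 10.05 (median 9.68) in high-dose iSPN arrays, against 9.04 to 9.63 (median 9.41) in saline iSPN arrays. It rose there by 0.36 ± 0.09 while it fell by 0.60 in dSPN, a difference of -0.97 ± 0.12 (adjusted p 2.89e-10). For Dnajb4 the dSPN change was -0.24 and the iSPN change 0.36, so the difference was -0.60 ± 0.07 (adjusted p 3.48e-10). With the run as a block, the iSPN rise was called for Dnajb4 and not for Dnajb2. Within the run that held all high-dose iSPN arrays neither rise was called. Hspa5, Dnaja1, Dnaja4, Dnajb1 and Hspe1 rose in both lines, and their high-dose difference between lines was not called. With the run as a block, only Dnaja1 and Dnajb1 of these were called in iSPN. With the oligodendrocyte mean in the fit, the dSPN rises of Dnaja4 and Hspe1 were not called. The lines shared no arrays: 7 members rose in both, which is 31.8% of the 22 in dSPN and 70% of the 10 in iSPN. For all genes those shares were 14% and 45%.

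**Figure D4:**
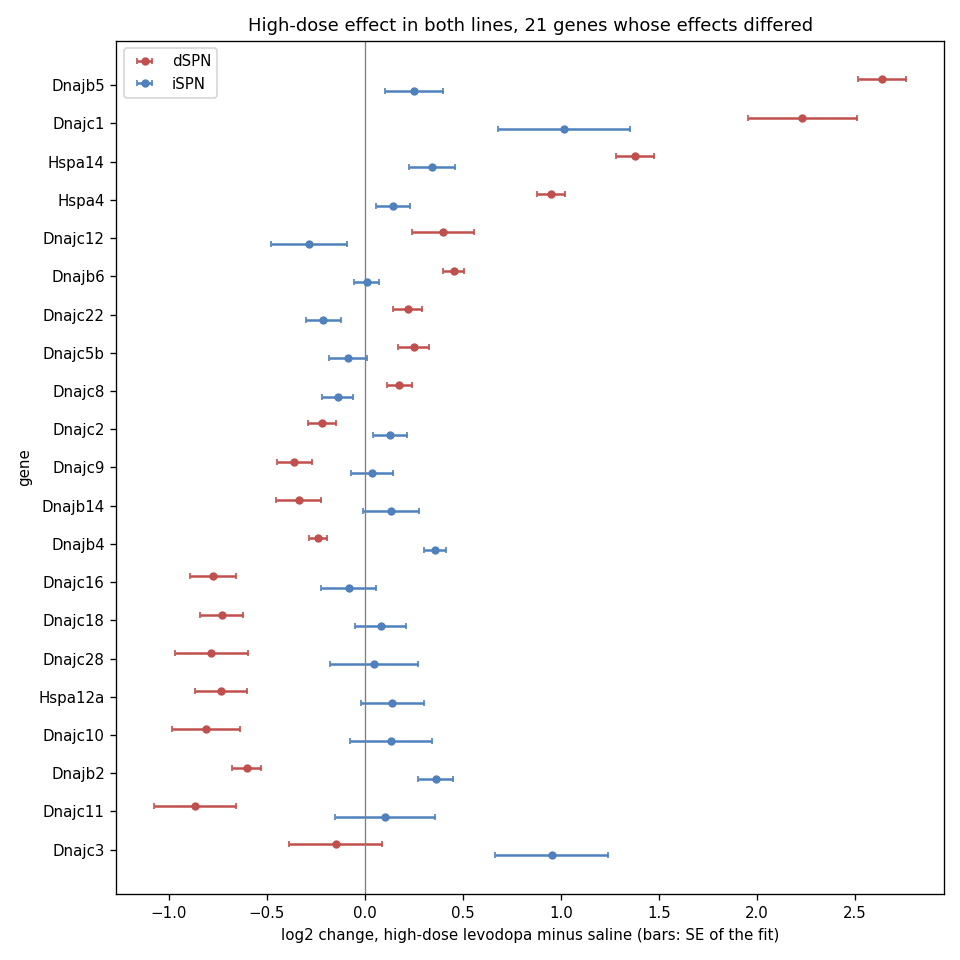
Log2 change at the high dose against saline in lesioned dSPN (red) and lesioned iSPN (blue), with SE bars, for the 21 members whose effects differed between the lines. Dnajb5 stands at 2.64 and 0.25, and Dnajb2 at -0.60 and 0.36.

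The lesion alone changed a single member in dSPN. Of 62 members 1 was called, or 1.61%, against 2.48% of all genes tested (0.64% higher and 1.84% lower). That member, Dnajb2, had 9.65 to 9.96 (median 9.85) in lesioned saline dSPN arrays, against 9.35 to 9.62 (median 9.46) in mock dSPN arrays. It was also the only member with separate groups, against 0.181% of all genes. The change was 0.37 ± 0.08 (adjusted p 0.00101). It was 0.37 within the run that held 5 lesioned and 4 mock arrays, where the adjusted p was 0.242.

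In iSPN the lesion raised 2 members and lowered 2, or 6.45%, against 6.2% of all genes tested (3.19% higher and 3.01% lower), with no separate groups, against 0.671% of all genes. Dnajb2 changed by -0.38 ± 0.08 (adjusted p 0.00189), Hspa12a by -0.66 ± 0.15 (adjusted p 0.00282), Dnajc8 by 0.23 (adjusted p 0.0464) and Hspb2 by 0.30 (adjusted p 0.0378). Hspb2 was dim, with a mean of 4.42 over all arrays, close to the array medians of 4.31 to 4.42. Hspa12a had 7.74 to 9.32 (median 8.26) in lesioned saline iSPN arrays, against 8.53 to 9.47 (median 9.08) in mock iSPN arrays, which overlapped. With the run as a block 1 member (1.61%, against 0.799% of all genes) was called, Hspa12a, at -0.97. The lesion effect differed between the lines in 3 members, or 4.84%, against 4.86% of all genes (1.65% higher and 3.21% lower): Dnajb2 by 0.74 ± 0.11 (adjusted p 2.08e-06), Hspa12a by 0.67 ± 0.20 (adjusted p 0.0383) and Dnajc12 by -0.78 ± 0.25 (adjusted p 0.0478). Dnajc12 (-1.47, adjusted p 0.0161) was called with the run as a block, while Dnajb2 (0.54, adjusted p 0.11) and Hspa12a (0.86, adjusted p 0.169) were not. With either glial mean in the fit 1 member was called (1.61%). The share of all genes was 4.03% with the oligodendrocyte mean and 3.81% with the astrocyte mean. The lesion and levodopa comparisons share the lesioned saline arrays. In dSPN, Dnajb2 had a median of 9.46 with mock lesion, 9.85 with lesion and saline, 9.50 at the low dose and 9.33 at the high dose.

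In mock-lesioned mice 15 members were higher and 5 lower in dSPN than in iSPN, or 32.3%, against 22.5% of all genes tested (11.6% higher and 10.9% lower). The lines' arrays did not overlap in 3 members, against 2.28% of all genes. Hsp90aa1 had 11.61 to 11.94 (median 11.80) in dSPN arrays, against 10.74 to 11.51 (median 11.17) in iSPN arrays. That is a difference of 0.68 ± 0.08 (adjusted p 9.65e-10). Hsp90b1 was higher by 0.60 ± 0.11 (adjusted p 3.96e-05) and Dnaja1 by 0.26 ± 0.06 (adjusted p 0.000379), both with separate ranges. Dnajc24 (0.89), Dnajc21 (0.74), Hspa12a (0.72) and Hspa9 (0.52) were also higher in dSPN. Hspb8, a small heat shock protein of the autophagy pathway, was lower, with a difference of -0.76 ± 0.28 (adjusted p 0.0396). Of 13 oligodendrocyte markers 10 were lower in mock dSPN, with list means of 6.56 to 7.52 in dSPN arrays, against 7.14 to 8.46 in iSPN arrays. With that mean in the fit, 8 members were higher and 3 lower, or 17.7%, against 12.3% of all genes. Line, transgene and run of mouse numbers cannot be told apart from cell class here, since no run held arrays of both lines.

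Genes that work with the family were read from lists outside the rule. In high-dose dSPN, of 28 tested cochaperones of Hsp70 and Hsp90, 9 rose and 7 fell, with a median of -0.0030. Tomm70a, a mitochondrial import receptor that docks both chaperones, rose by 0.71, and Tsc1, a cochaperone of Hsp90, fell by 0.89. Of 16 subunits and helpers of the cytosolic chaperonin and prefoldin, 7 rose and 5 fell (median 0.14), with Pdcl3 at 0.96 and Pdcl at -1.35. Of 18 chaperones and stress regulators of the endoplasmic reticulum, 6 rose and 2 fell (median 0.24). They included the stress transcription factors Ddit3 (0.99), Atf4 (0.84) and Xbp1 (0.70). Of 12 mitochondrial folding genes 5 rose and 1 fell (median -0.05), the fall being Timm44 (-0.91), which tethers Hspa9 at the import channel. Of 11 clathrin and synaptic partners of Dnajc6 and Hspa8, 5 rose and 1 fell (median 0.06), with the clathrin heavy chain Cltc at 0.89. The median of all genes was -0.04. Of all genes tested, 20.1% rose and 25.5% fell in high-dose dSPN.

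In high-dose iSPN the same lists had 5 of 28 cochaperones higher and 2 lower (median 0.01), 2 of 16 chaperonin genes higher (median 0.05) and 2 of 18 endoplasmic reticulum genes higher (median 0.21). Those last 2 were Sdf2l1 (1.29) and Manf (1.11). Of all genes tested, 6.27% were higher and 3.59% lower in high-dose iSPN. Of 8 targets of heat shock factors outside the rule, 3 rose and none fell in high-dose iSPN (median 0.34), and 3 rose and 2 fell in high-dose dSPN (median -0.07). Chordc1, an Hsp90 cochaperone on that list, rose by 1.06 ± 0.10 in high-dose iSPN (adjusted p 5.51e-12) and by 0.67 ± 0.09 in high-dose dSPN (adjusted p 5.65e-10). Of 3 tested heat shock factors and regulators, Hsf2 rose by 0.53 and Hsf4 fell by 0.62 in high-dose dSPN.

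Promoter windows were found for 57 of the 70 members, 74 windows of 300 bases in all. A heat shock element of 3 units lay in 6 windows (8.11%), against 0.603% of all windows, and the 4 genes were Dnajb6, Hspd1, Hspe1 and Hsph1. At the high dose in dSPN 3 of these rose and Hspd1 fell. The windows with this element overlap in part: both Dnajb6 windows held the same site, as did both Hsph1 windows. Hspd1 and Hspe1 also shared theirs, so the 6 windows are not 6 separate sites. The shorter element of 2 units (GAANNTTC or TTCNNGAA, also part of the longer one) lay in 24.3% of member windows, against 15.1% of all. The full cAMP response element TGACGTCA lay in 1.35%, against 1.79%, and the member was Dnajc27, which fell. The endoplasmic reticulum stress element, CCAAT and CCACG spaced by 9 bases, lay in 4.05%, against 0.119%, and the genes were Dnajc3, Hsp90b1 and Hspa5. Both strands were searched. These 3 genes differed in response at the high dose. Hspa5 rose by 0.82 in dSPN and 0.81 in iSPN, and Hsp90b1 was called in neither line. The probe set that stands for Dnajc3 was called in iSPN alone, with a high-dose difference between lines of -1.10 ± 0.37 (adjusted p 0.0219). Another Dnajc3 probe set fell in high-dose dSPN. With the run as a block, neither Hspa5 nor Dnajc3 was called in high-dose iSPN. The windows of Hspa5 (chr2:34771840-34772139, plus strand) and Hsp90b1 (chr10:86705395-86705694, minus strand) are shown with the element in capitals; it occurs once in Hspa5 and, on either strand, at 2 places in Hsp90b1. They are shown because both hold the element and Hspa5 was called in both lines, Hsp90b1 in neither.
Hspa5: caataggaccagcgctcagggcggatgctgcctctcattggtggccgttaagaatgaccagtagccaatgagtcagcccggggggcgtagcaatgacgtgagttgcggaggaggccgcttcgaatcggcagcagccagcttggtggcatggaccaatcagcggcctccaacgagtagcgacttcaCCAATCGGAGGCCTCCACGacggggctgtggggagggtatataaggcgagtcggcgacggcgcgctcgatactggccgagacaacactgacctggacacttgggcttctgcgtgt
Hsp90b1: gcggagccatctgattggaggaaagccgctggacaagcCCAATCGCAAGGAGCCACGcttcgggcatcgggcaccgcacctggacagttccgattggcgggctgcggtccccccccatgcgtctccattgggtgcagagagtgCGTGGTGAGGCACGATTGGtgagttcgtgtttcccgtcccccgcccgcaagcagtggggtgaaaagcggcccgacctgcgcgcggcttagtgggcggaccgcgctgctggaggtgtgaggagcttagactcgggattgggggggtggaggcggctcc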

How the data were processed

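RNA bound to EGFP-tagged ribosomes was measured on 77 Affymetrix mouse whole-genome arrays in 8 groups. The deposited values are log2 intensities, and the submitters' processing notes name RMA and affy; their versions are not given in the sources used here. Intensity arrays carry no read depth, and precision is limited by how many arrays a group has. The probe table pairs 34958 of 45101 probe sets with 1 symbol, 932 with several and 9211 with none, and 3 probe sets that list a member among several symbols were left out. Each gene was its brightest probe set, kept where its mean passed the 40th percentile of all probe sets. A model with 8 groups and 69 residual degrees of freedom was fitted with limma 3.58.1 in R 4.3.3 (lmFit, eBayes), and p-values were adjusted by Benjamini-Hochberg over 13271 genes in each of 12 comparisons. Each array is 1 mouse, so p-values measure the spread between mice. Named were up to 12 called members with the highest and up to 12 with the lowest change in each comparison, a panel of 20 members read in every comparison, and up to 4 called genes with the largest change of each pathway list. Other members were named after their values were seen, to complete a role. Members and lists were chosen with earlier results of these data known. The fit was tested on simulated data. Alternatives were run as a fixed or random block or within a run, array weights, each line alone, median centring, other filters, other probe-set summaries and glial marker means as covariates. The astrocyte covariate was chosen after seeing the data. Promoter windows came from RefSeq on GRCm38.p6. Marker lists of microglia, endothelial and mural cells, cholinergic and GABA interneurons and dSPN were also read: in high-dose dSPN they had 1 of 8, 0 of 4, 0 of 3, 0 of 6 and 3 of 11 higher, and 0, 0, 0, 1 and 5 lower.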

Additional observations from a re-analysis of the deposited data

Results flagged for a closer look

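The effects of levodopa and of the lesion differed between the lines in 38 of 186 tests of an interaction over member genes, given on the log2 scale with the iSPN effect subtracted from the dSPN effect (limma, adjusted over all genes). The members called were 33.9% at the high dose, 22.6% at the low dose and 4.84% for the lesion, against 25%, 14.8% and 4.86% of all genes tested. At the high dose the effect was higher in dSPN for Dnajb5 (2.39), Dnajc1 (1.22), Hspa14 (1.03), Hspa4 (0.81), Dnajc12 (0.68), Dnajb6 (0.44), Dnajc22 (0.43), Dnajc5b (0.33) and Dnajc8 (0.32). It was lower in dSPN for Dnajc2 (-0.35), Dnajc9 (-0.40), Dnajb14 (-0.47), Dnajb4 (-0.60), Dnajc16 (-0.69), Dnajc18 (-0.81), Dnajc28 (-0.83), Hspa12a (-0.87), Dnajc10 (-0.94), Dnajb2 (-0.97), Dnajc11 (-0.97) and Dnajc3 (-1.10). At the low dose it was higher in dSPN for Dnajb5 (2.17), Dnajc1 (1.31), Dnajc24 (0.90), Dnajc12 (0.78), Hspa14 (0.74), Hspa4 (0.47), Dnajc22 (0.37), Dnajc5b (0.36), Dnajb6 (0.29) and Dnaja1 (0.24). It was lower there for Dnajb4 (-0.34), Dnajc16 (-0.56), Dnajb2 (-0.58) and Hspa12a (-0.70). The lesion effect was higher in dSPN for Dnajb2 (0.74) and Hspa12a (0.67) and lower for Dnajc12 (-0.78).

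Single arrays stood far from the rest of their group in 10 of 120 groups examined over 24 genes. The cutoff marks about 1 in 20 groups when values are normal. The genes were read on the same arrays, so the groups were not independent, and an excess over chance was not tested. The 3 dSPN lesion groups, each of over 10 arrays, were not examined. In high-dose iSPN the lowest array was 11.94 for Dnaja1, with the next at 12.23, and 10.90 for Hsp90aa1, with the next at 11.38. In the same group the highest array was 9.27 for Hspa12a, with the next at 8.64, and 8.41 for Dnajc12, with the next at 8.01. In low-dose iSPN the lowest Dnajc1 array was 3.74, with the next at 6.61. In lesioned saline iSPN the lowest array was 8.37 for Hspa14, with the next at 8.97, and 11.37 for Hspe1, with the next at 11.86, and the highest Hspa9 array was 10.89, with the next at 10.34. In mock dSPN the highest Hspa12a array was 10.48, with the next at 9.98, and the lowest Dnajc12 array was 7.11, with the next at 7.65.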

How the results depend on the processing

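Counts of changed members moved by over 1.5 times under several settings, and the count over all genes mostly moved with them. With the run as a fixed block, 0 members were called for the lesion in dSPN (1 without it), 13 for the low dose in dSPN (27), 1 between doses in dSPN (7), 1 for the lesion in iSPN (4) and 3 for the high dose in iSPN (11). Over all genes these counts were 88 (329), 1847 (4531), 174 (903), 106 (823) and 249 (1309). For the differences between lines in the lesion, high-dose and low-dose effects the block gave 1, 11 and 5 members (3, 21 and 14) and 148, 2077 and 703 genes (645, 3319 and 1961). Within a run, with fewer arrays, no member was called for the lesion or between doses in dSPN (7 genes each), or for the high (61 genes) or low dose (4 genes) in iSPN, a count of 0 in each. With each line fitted alone 4 members were called for the lesion in dSPN (554 genes), and 1 for the lesion (350 genes), 7 for the high dose (577 genes) and 0 for the low dose (153 genes) in iSPN. Array weights gave 4 for the lesion in dSPN (776 genes) and 2 for the low dose in iSPN (377 genes), and median centring gave 2 there (556 genes). With the oligodendrocyte mean as a covariate 25 members were called for the high dose in dSPN (4514 genes), 1 and 7 for the line differences in the lesion and low-dose effects (535 and 1623 genes), and 11 between lines with mock lesion (1638 genes). With the astrocyte mean 17 were called for the low dose in dSPN (3135 genes) and 1 and 8 for those line differences (506 and 1560 genes). Averaging a gene's probe sets turned the sign of Dnajc5 at the high dose in dSPN (0.15), and of Dnajb1 (0.21), Dnajc14 (-0.061), Dnajc18 (0.32) and Hspa8 (-0.015) between lines with mock lesion. The fixed block turned Dnajc11 at the low dose in dSPN (0.050). The cause was not tested. Of the named results that were called and could be refitted, calls were lost in 52 of 117 with the fixed block, 25 of 51 within a run, 49 of 135 with the oligodendrocyte mean, 37 of 135 with the astrocyte mean, 18 of 135 with averaged probe sets, 11 of 79 with each line alone, and 0 to 15 under the others. No paired analysis was possible because the labels give no replicate numbers shared between groups.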
